A study of Mus musculus with 9 samples.

Results

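The interferon response was examined in B16 mouse melanoma cells through 39 genes chosen by name, with earlier results of these data known. The genes cover interferon receptors, signal transducers, nucleic acid sensors and interferon-stimulated genes. Among the 22972 gene names measured, 37 of the 39 had a row, 29 averaged 1 FPKM or more over all 9 libraries, and 8 stayed under that level. FPKM counts fragments scaled by the length of the transcript and the number of mapped fragments. Levels can thus be set side by side between genes and, more roughly, between libraries, for which other scalings were also run. Mx1 and Mx2, which encode antiviral GTPases, are not analysed here. RefSeq lists both as pseudogenes on chromosome 16 of the reference assembly.

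B16 is an established melanoma line, and all cells were labelled wild type, grown on PDMS film, a silicone membrane, and collected at day 3. The 3 CTL libraries came from control cells, and the 3 MS (mechanically stimulated) libraries from cells on film under cyclic tensile deformation for 72 h. The 3 Blebb. libraries came from cells given 100 ng/mL blebbistatin, a myosin inhibitor, for 72 h. The labels of these libraries mention only blebbistatin, whereas the study's methods give the inhibitor together with straining, so its contrast with MS can be read as one of the inhibitor only if these cells were strained. The libraries are numbered as parallel experiments of 1 cell line, and nothing says that they came from separate cultures, so p-values measure the spread between these libraries. In bulk RNA, fewer cells expressing a gene and less RNA per cell cannot be told apart.

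Type I interferons bind the receptor chains Ifnar1 and Ifnar2, and the associated kinases, Jak1 among them, then phosphorylate factors such as Stat2. Stat2 acts with Irf9 in the complex ISGF3, which binds the interferon-stimulated response element in front of its target genes. Products of these genes block viral entry, translation and replication, and several of them, such as Stat2, Irf9, Isg15 and Usp18, act within the pathway itself. In melanoma the pathway is known for its role in the recognition of tumor cells by the immune system.

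To show what the promoters of these genes have in common, the core of the response element, GAAANNGAAA, was searched on both strands in the 250 bases before each RefSeq transcript start. A promoter sequence was matched for 31 of the 39 genes, and 9 of them (29.03%) held the core, while 936 of 27025 gene symbols (3.46%) held it. The 9 genes were Bst2, Gbp2, Ifit1, Ifit3, Ifitm2, Irf2, Isg15, Rsad2 and Stat2. Dhx58, Zbp1, Mx1, Mx2, Usp18, Parp14, Parp9 and Ifi27 had no matched promoter. A match of letters is a description and not a measured binding site. The following 6 stretches, from RefSeq on build GRCm38.p6, run 5′ to 3′ on the strand of the gene, with each match in capitals (it reads TTTCNNTTTC where the core lies on the other strand). They are shown because these genes include the highest level, that of Ifitm2, and the opposite patterns described further on.
Isg15, chr4:156200863-156200908, minus strand: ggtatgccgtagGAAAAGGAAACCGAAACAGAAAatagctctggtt
Bst2, chr8:71537575-71537614, minus strand: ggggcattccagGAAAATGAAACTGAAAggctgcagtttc
Stat2, chr10:128270264-128270297, plus strand: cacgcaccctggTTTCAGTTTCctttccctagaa
Ifit1, chr19:34640773-34640825, plus strand: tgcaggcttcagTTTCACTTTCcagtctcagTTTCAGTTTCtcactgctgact
Ifit3, chr19:34583361-34583428, plus strand: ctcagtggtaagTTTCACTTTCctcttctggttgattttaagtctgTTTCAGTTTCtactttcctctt
Ifitm2, chr7:140955986-140956019, minus strand: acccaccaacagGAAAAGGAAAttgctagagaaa
Neighboring matches overlap in Isg15, which has 3, and in Bst2, which has 2, while the 2 matches of Ifit1 and the 2 of Ifit3 stand apart. Counted in bases from the transcript start, the nearest match ended at -57 in Isg15, -115 in Bst2, -213 in Stat2, -76 in Ifit1, -113 in Ifit3 and -37 in Ifitm2. The stretches of Ifit3 and Ifitm2 lie inside the RefSeq spans of these genes, since the transcript start used there is not the outermost.

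The libraries were first compared as a whole. FPKM summed to between 439939 and 484093 in each library, and no pair of libraries was identical. The 7 melanocyte markers were all present, with a sum between 7444 and 12933 FPKM, while Cd3d, Cd8a, Ncr1 and Nkg7 of lymphocytes and Ptprc, C1qa and C1qb of macrophages were listed at 0 in all 9 libraries. The 8 macrophage markers summed to between 2.10 and 3.19 FPKM in CTL, 2.25 and 4.32 in MS, and 2.73 and 3.47 in Blebb., with Cd68 the one marker at a mean of at least 1 FPKM. The 6 fibroblast markers summed to at most 0.567 FPKM, the 5 keratinocyte markers to at most 0.0314 and the 3 endothelial markers to at most 0.0361. CTL replicate 1, MS replicate 3 and Blebb. replicate 2, 1 library of each group, stood apart in earlier results of these data. They also had the 3 lowest scores on the first principal component of the 10109 genes tested, at -42.1, -10.0 and -43.9, followed by Blebb. replicate 1 at -7.29. After removal of each library's trend with GC content the 3 scores were -35.0, -17.2 and -34.2, and that of Blebb. replicate 1 was 2.92. The results are therefore given with these libraries named.

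The most abundant of the 39 genes were antiviral membrane proteins, as the plot of levels by gene shows. Ifitm2 and Ifitm3, which restrict the fusion of viruses with endosomal membranes, lie near each other on chromosome 7. Ifitm2 was measured at 209, 167 and 144 FPKM in CTL, 179.5, 152 and 179 in MS, and 181, 211 and 146 in Blebb. The group means were 173 ± 33.4, 170.1 ± 15.9 and 179.6 ± 32.7 FPKM (SD, n = 3 each), and the groups overlapped throughout. For Ifitm3, CTL gave 146, 85.2 and 46.9 FPKM, MS gave 68.6, 67.4 and 111, and Blebb. gave 87.3, 217 and 75.2. Its 3 highest values thus came from CTL replicate 1, MS replicate 3 and Blebb. replicate 2, and its highest library was 4.62-fold above its lowest. Bst2, or tetherin, holds budding virus particles on the cell surface. Its values were 77.1, 66.8 and 61.7 FPKM in CTL, 62.5, 63.4 and 72.8 in MS, and 66.7, 92.3 and 66.4 in Blebb. The same 3 libraries were again the highest, in a narrower range. Ifi27, an interferon-induced mitochondrial protein, was at 124, 43.1 and 42.8 FPKM in CTL, 69.0, 48.5 and 108 in MS, and 42.4, 146 and 41.7 in Blebb. Each group held 1 library above 100 FPKM and 2 between 41.7 and 69.0 FPKM, so the SD was 47.0 FPKM beside a mean of 70.1 in CTL, 30.3 beside 75.2 in MS and 60.2 beside 76.8 in Blebb. (n = 3 each). In RefSeq the gene lies within the span of its paralog Ifi27l2a, and the counting was not stated, so its level is uncertain.

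**Figure D1:**
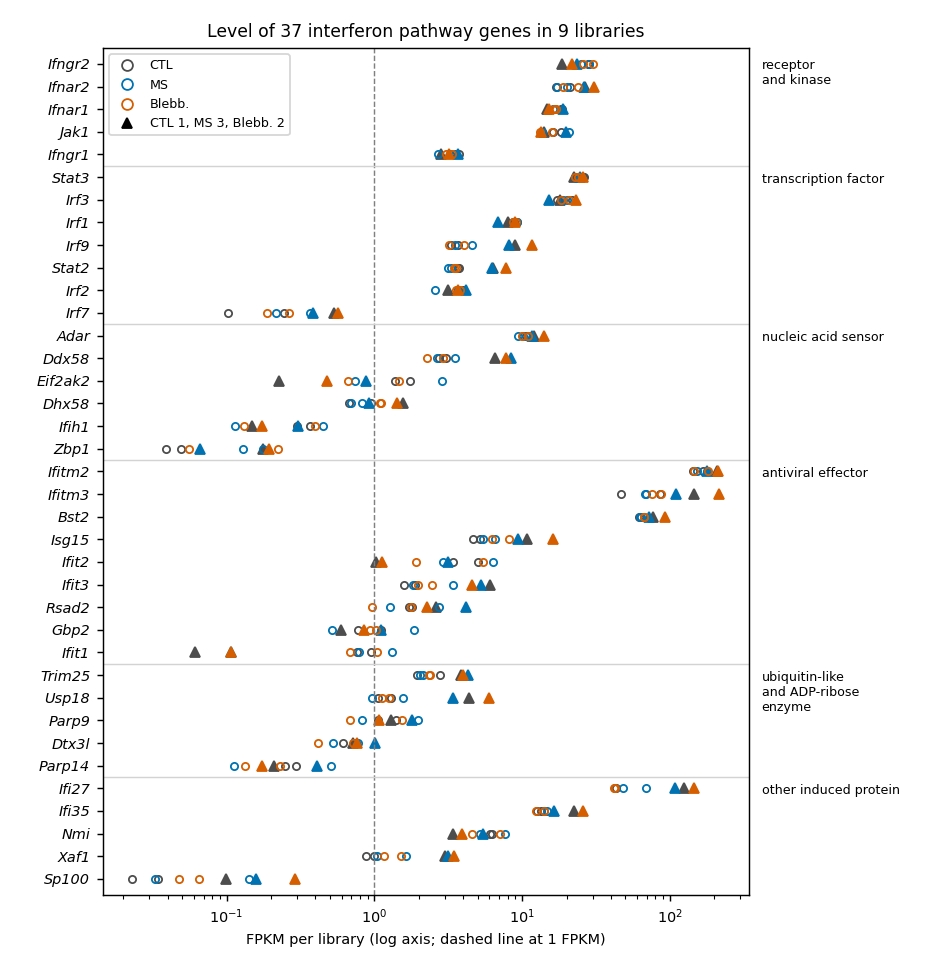
FPKM of the 37 genes with a row in each of the 9 libraries on a log axis, ordered by role and level, with colors for the 3 groups, filled triangles for CTL replicate 1, MS replicate 3 and Blebb. replicate 2, and a dashed line at 1 FPKM. Ifitm2 and Ifitm3 had the highest levels, Sp100 the lowest, and the triangles are the 3 highest points for 14 of the 29 genes tested.

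The receptor genes had close group means. Ifnar1, a chain of the type I receptor, averaged 17.3 ± 2.21 FPKM in CTL, 17.3 ± 1.48 in MS and 16.2 ± 0.941 in Blebb. (SD, n = 3 each). Ifnar2 was measured at 26.8, 21.0 and 17.0 FPKM in CTL, 20.2, 17.3 and 26.4 in MS, and 23.9, 30.8 and 19.0 in Blebb., with the highest value of each group in the 3 libraries named. Ifnar1, its partner, ranged from 14.8 to 18.9 FPKM over all libraries, and its 3 highest values came from MS replicate 3, CTL replicate 3 and CTL replicate 2. Ifngr2, a chain of the interferon gamma receptor, gave 18.7, 28.4 and 28.0 FPKM in CTL, 25.2, 28.3 and 23.4 in MS, and 30.2, 21.8 and 25.8 in Blebb. This was the reverse order of Ifnar2, since the 3 lowest Ifngr2 values came from CTL replicate 1, MS replicate 3 and Blebb. replicate 2. Ifngr1, the other chain, stayed between 2.71 and 3.74 FPKM. Jak1, the kinase shared by both receptors, was at 14.0, 16.1 and 18.5 FPKM in CTL, 20.9, 13.7 and 19.8 in MS, and 13.3, 13.4 and 16.004 in Blebb.

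Transcription factors fell into a steady and a variable set. Stat3, which mainly serves cytokines of the interleukin 6 family, was the steadiest at 22.5, 26.0 and 26.1 FPKM in CTL, 23.0, 24.9 and 24.5 in MS, and 24.1, 25.8 and 23.0 in Blebb. Irf3, which switches on interferon genes after viral sensing, ranged from 15.1 to 23.3 FPKM, Irf1 from 6.85 to 9.21 and Irf2 from 2.57 to 4.19. Stat2 and Irf9, the ISGF3 components, varied far more and are given here because of that, after their values were seen. Irf9 was measured at 8.93, 3.68 and 3.31 FPKM in CTL, 4.57, 3.52 and 8.11 in MS, and 4.03, 11.7 and 3.22 in Blebb. Stat2 gave 6.32, 3.70 and 3.75 FPKM in CTL, 3.29, 3.13 and 6.24 in MS, and 3.58, 7.78 and 3.46 in Blebb. In both genes, 1 library of each group lay above all of the other 6, while the group means of Irf9 were close at 5.31 ± 3.14, 5.40 ± 2.41 and 6.33 ± 4.70 FPKM (SD, n = 3 each). Irf7, the factor that amplifies the production of interferon alpha, stayed between 0.103 and 0.566 FPKM.

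Nucleic acid sensors were of low to moderate level. Adar, which edits double-stranded RNA, ranged from 9.41 to 14.0 FPKM. Ddx58 encodes RIG-I, a sensor of viral RNA, and ranged from 2.27 to 8.47 FPKM, with its 3 highest values, 6.56, 8.47 and 7.75, in CTL replicate 1, MS replicate 3 and Blebb. replicate 2. Dhx58, which encodes the RIG-I relative LGP2, was at 1.55, 0.956 and 0.674 FPKM in CTL, 0.699, 0.824 and 0.921 in MS, and 1.09, 1.42 and 1.11 in Blebb. Thus every Blebb. value of Dhx58 lay above every MS value, while CTL overlapped both. Eif2ak2, the kinase PKR that stops translation on double-stranded RNA, gave 0.225, 1.38 and 1.75 FPKM in CTL, 2.89, 0.739 and 0.880 in MS, and 0.665, 0.479 and 1.48 in Blebb. It ran in another order, with its lowest values in CTL replicate 1 and Blebb. replicate 2 and its highest in MS replicate 1, 12.8-fold above the lowest. Ifih1, the RNA sensor MDA5, had a mean of 0.265 FPKM and Zbp1, a sensor of Z-form nucleic acid, one of 0.123 FPKM.

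**Figure D2:**
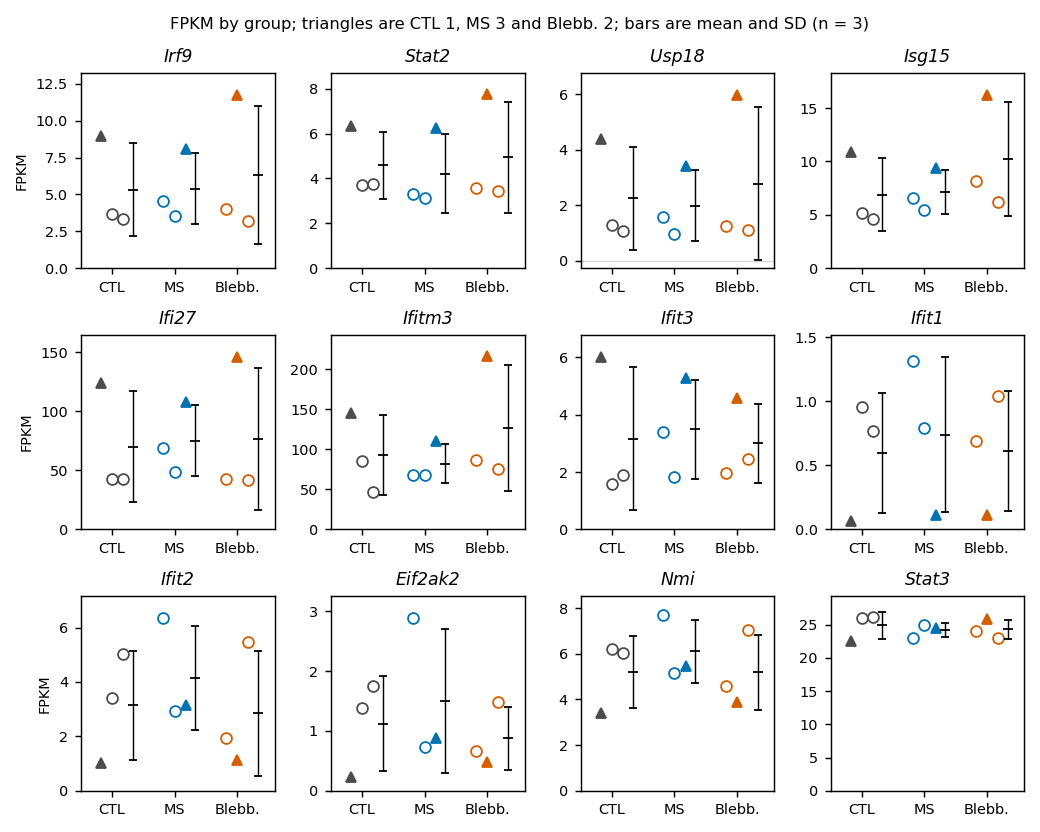
FPKM of 12 genes by group on linear axes from 0, with 1 point per library, triangles for CTL replicate 1, MS replicate 3 and Blebb. replicate 2, and bars for the mean and SD (n = 3). In the 7 panels from Irf9 to Ifit3 the triangle is the highest point of each group, in Ifit1 it is the lowest (0.0614, 0.108 and 0.108 FPKM), and Stat3 shows a narrow range from 22.5 to 26.1 FPKM.

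Isg15, a ubiquitin-like protein that is joined to other proteins after interferon, was at 10.8, 5.16 and 4.65 FPKM in CTL, 6.60, 5.44 and 9.39 in MS, and 8.14, 16.3 and 6.23 in Blebb. Its mean was 6.88 ± 3.43 FPKM in CTL, 7.15 ± 2.03 in MS and 10.2 ± 5.33 in Blebb. (SD, n = 3 each), and the groups overlapped. Usp18 removes Isg15 from proteins and dampens the type I receptor. It gave 4.37, 1.29 and 1.07 FPKM in CTL, 1.58, 0.966 and 3.41 in MS, and 1.26, 5.96 and 1.12 in Blebb., a 6.17-fold range with the same 3 libraries at the top. Trim25, a ubiquitin ligase of the RIG-I pathway, ranged from 1.95 to 4.28 FPKM, again with these 3 libraries the highest. The ADP-ribosyltransferase family member Parp9, by contrast, had its highest value in MS replicate 1, at 1.98 FPKM. In RefSeq it overlaps its partner Dtx3l, a ubiquitin ligase that had a mean of 0.698 FPKM, and Parp14, another ADP-ribosyltransferase, had a mean of 0.259 FPKM.

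The Ifit genes encode proteins that bind foreign RNA or interact with each other in doing so, and Ifit1, Ifit2 and Ifit3 are neighbors on chromosome 19. They ran in different orders over the libraries. Ifit3 was measured at 6.03, 1.59 and 1.89 FPKM in CTL, 3.40, 1.83 and 5.27 in MS, and 1.99, 4.58 and 2.48 in Blebb. Ifit1 gave 0.0614, 0.954 and 0.766 FPKM in CTL, 1.32, 0.791 and 0.108 in MS, and 0.687, 0.108 and 1.04 in Blebb. As a result, the 3 libraries with the highest Ifit3 had the lowest Ifit1, a gene with a mean of only 0.648 FPKM. Both promoters hold 2 copies of the core, as printed above, and the part of the core in these levels was not tested. Ifit2 was at 1.03, 3.40 and 5.02 FPKM in CTL, 6.34, 2.92 and 3.16 in MS, and 1.93, 1.13 and 5.47 in Blebb., with the lowest values in CTL replicate 1 and Blebb. replicate 2. Ifit1 and Ifit3 were singled out after their values were seen, and reads of Ifit3 may be shared with its near-identical copy Ifit3b, which had a mean of 0.926 FPKM. Rsad2, or viperin, which makes a nucleotide that ends viral RNA chains, gave 2.63, 1.80 and 1.71 FPKM in CTL, 2.72, 1.27 and 4.16 in MS, and 0.960, 2.27 and 1.76 in Blebb. Gbp2, a guanylate-binding protein against intracellular pathogens, had a mean of 0.974 FPKM.

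Among the other induced proteins, Ifi35 and Nmi form a complex with each other, yet they differed in order. Ifi35 ranged from 12.3 to 25.8 FPKM, with the highest values at 22.5 in CTL replicate 1, 16.6 in MS replicate 3 and 25.8 in Blebb. replicate 2. Nmi gave 3.39, 6.22 and 6.02 FPKM in CTL, 7.69, 5.17 and 5.46 in MS, and 4.59, 3.90 and 7.06 in Blebb., lowest in CTL replicate 1 and Blebb. replicate 2. Xaf1, a protein that promotes cell death, was at 3.00, 3.17 and 3.45 FPKM in the 3 libraries named and at no more than 1.63 FPKM in the other 6. Sp100, a nuclear body protein, had the lowest level of all 37 genes with a row, at a mean of 0.0993 FPKM. None of the 37 genes was listed at 0 in all libraries.

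Across the 29 genes tested, 14 (48.3%) had their 3 highest values in CTL replicate 1, MS replicate 3 and Blebb. replicate 2, while 1599 of all 10109 genes tested (15.8%) did so. These were Adar, Bst2, Ddx58, Ifi27, Ifi35, Ifit3, Ifitm3, Ifnar2, Irf9, Isg15, Stat2, Trim25, Usp18 and Xaf1. Only Ifngr2 of the 29 (3.45%) had its 3 lowest values there, beside 1629 of all genes (16.1%). By role, the 14 genes comprised 1 of 5 receptors and kinases, 2 of 6 transcription factors, 2 of 4 sensors, 4 of 7 effectors, 2 of 3 enzymes of the ubiquitin-like and ADP-ribose systems and 3 of 4 other induced proteins. Of the 8 genes under 1 FPKM, Irf7 had its 3 highest values in these libraries and Ifit1 its 3 lowest. Among all 6374 genes under that level and above 0 in some library, 5.30% had their 3 highest and 7.28% their 3 lowest values there. The genes and the 3 libraries were chosen with earlier results of the same data known, so the count of 14 is no independent observation. Since the 3 libraries were chosen in this way and include 1 of each group, no test was made between them and the rest.

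The count moved little with the scaling of the values. It was 14 of 29 with median-of-ratios factors, 15 with quantile normalization and 15 after removal of the GC trend, beside 16.5%, 18.3% and 22.1% of all genes, and 13 genes were shared by all 4 scalings, all of the 14 but Adar. Measured as log2(FPKM + 1) minus the mean of the gene over all libraries, the median of the 29 genes was 0.26 in CTL replicate 1, 0.18 in MS replicate 3 and 0.29 in Blebb. replicate 2. In the other 6 libraries it lay between -0.23 and -0.047. The median GC content of the longest transcript was 51.4% for the 14 genes and 48.0% for the 14 with neither their 3 highest nor their 3 lowest values in these libraries, beside 49.9% for all genes with a value. Over all genes with a value, deviations correlated with GC content at 0.45 in CTL replicate 1 and 0.54 in Blebb. replicate 2. The correlation was -0.16 in MS replicate 3 and 0.55 in Blebb. replicate 1. Of the 37 genes with a row, 6 had both CTL replicate 1 and Blebb. replicate 2 among their 3 lowest values. This rule was not counted over all genes. The stricter rule with MS replicate 3 included was met by 16.1% of all genes tested, so at least that share of them met this one. No excess among the 37 can be read from the 6. The GC content of these 6 genes was 43.3% for Ifit1, 42.0% for Ifit2, 43.9% for Eif2ak2, 44.6% for Nmi, 50.1% for Ifnar1 and 49.8% for Ifngr2.

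Genes of the integrated stress response, which lowers translation and induces Atf4 targets, moved with the same libraries. Of 8 listed genes, 6 (Asns, Atf4, Chac1, Ddit3, Sesn2 and Trib3) had their 3 highest values there, beside 15.8% of all genes tested. The 3 libraries were chosen from earlier results of these data, so this count is no independent observation. The sum of the 8 ranged from 424 to 1136 FPKM in CTL, 432 to 905 in MS and 467 to 1159 in Blebb. Their part in the levels of the interferon genes was not tested.

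**Figure D3:**
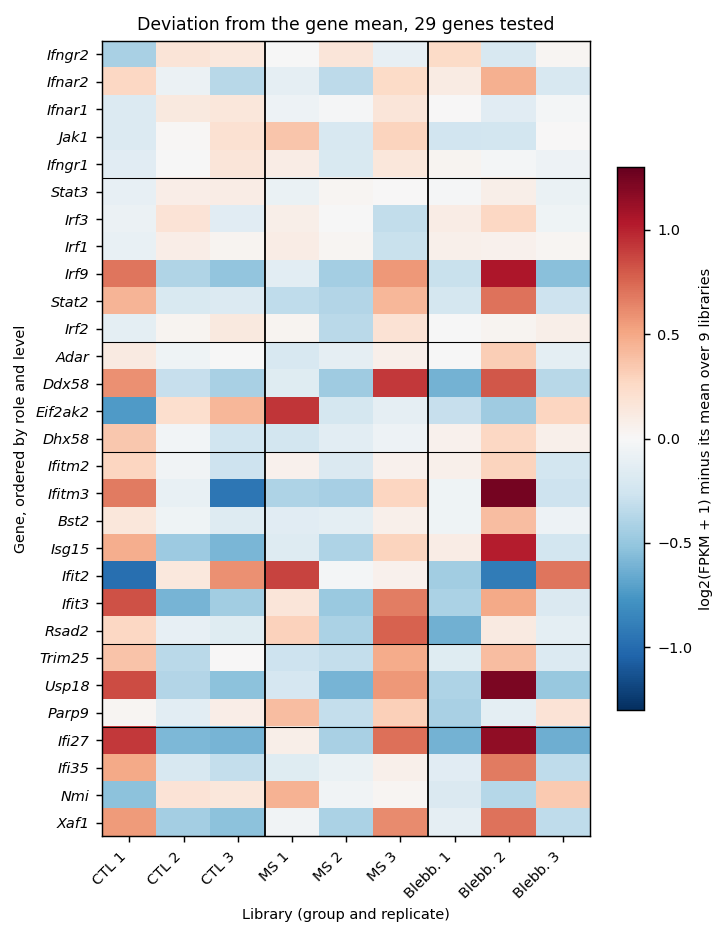
Deviation of log2(FPKM + 1) from the mean of the gene over all 9 libraries for the 29 genes tested, in rows ordered by role and level and columns ordered by group, with red for higher and blue for lower values. The columns of CTL replicate 1, MS replicate 3 and Blebb. replicate 2 are mostly red, with medians of 0.26, 0.18 and 0.29, and Ifit2, Eif2ak2 and Nmi are blue in the first and the last of them.

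The comparison of MS with CTL asked whether cyclic straining changed these genes. No gene of the 29 passed the test: limma, adjusted by Benjamini-Hochberg across the 10109 genes, gave 0 at an adjusted p under 0.05 (0% of all genes) and 0 at an unadjusted p under 0.05, where 16 of all genes (0.158%) lay. In none of the 29 did the 3 MS libraries lie wholly above or below the 3 CTL libraries, as they did in 3.17% of all genes. The log2 fold change was above 0 in 14 of 29, with a median of -0.0032, beside 49.5% and -0.0018 for all genes. It ran from -0.16 for Dhx58 to 0.39 for Ifit2. Dhx58, Nmi and Ifit2 had the smallest p-values. For Dhx58 the log2 fold change was -0.16 (SE 0.19, 95% interval -0.59 to 0.26), for Nmi 0.21 (SE 0.26, -0.38 to 0.81) and for Ifit2 0.39 (SE 0.50, -0.74 to 1.51), each with a limma adjusted p of 1.00. Without CTL replicate 1 they were 0.0024, -0.019 and -0.062, so the direction of all 3 turned on that library.

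The comparison of Blebb. with MS asked what differed after myosin inhibition. Again limma gave 0 of the 29 genes at an adjusted p under 0.05 (0% of all genes) and 0 at an unadjusted p under 0.05 (1.25% of all genes, or 126). Dhx58 was the 1 gene of the 29 in which the libraries did not overlap, which was the case for 3.73% of all genes. Its log2 fold change was 0.28 (SE 0.19, 95% interval -0.15 to 0.71), with a limma adjusted p of 0.897. Jak1 gave -0.31 (SE 0.18, -0.72 to 0.097) and Rsad2 -0.43 (SE 0.31, -1.14 to 0.27), with the same limma adjusted p. When MS replicate 2, which had the lowest Jak1 and Rsad2 values of its group, was left out, the log2 fold changes were -0.49 and -0.75, with an adjusted p of 0.747 in limma for both, and 598 of all genes (5.92%) then had an unadjusted p under 0.05. Of the 29 genes, 18 lay above 0 with a median of 0.058, beside 49.0% and -0.0059 for all genes, and the values ran from -0.52 for Ifit2 to 0.49 for Ifitm3.

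Between Blebb. and CTL, limma gave 0 of the 29 genes at an adjusted p under 0.05 (0% of all genes), 0 at an unadjusted p under 0.05 (0.089% of all genes, or 9), and 0 without overlap of the libraries (2.08% of all genes). Isg15 had the smallest p-value, with a log2 fold change of 0.49 (SE 0.38, 95% interval -0.37 to 1.35) and a limma adjusted p of 1.00. Without CTL replicate 1 this was 0.82 with a limma adjusted p of 0.945, and without Blebb. replicate 2 it was 0.13. Jak1 gave -0.17 (SE 0.18, -0.58 to 0.24) and Ifitm3 0.42 (SE 0.48, -0.66 to 1.503), both with a limma adjusted p of 1.00. The value of Ifitm3 was -0.046 without Blebb. replicate 2, the library with 217 FPKM. In total 19 of 29 genes lay above 0 with a median of 0.045, beside 46.0% and -0.013 for all genes.

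**Figure D4:**
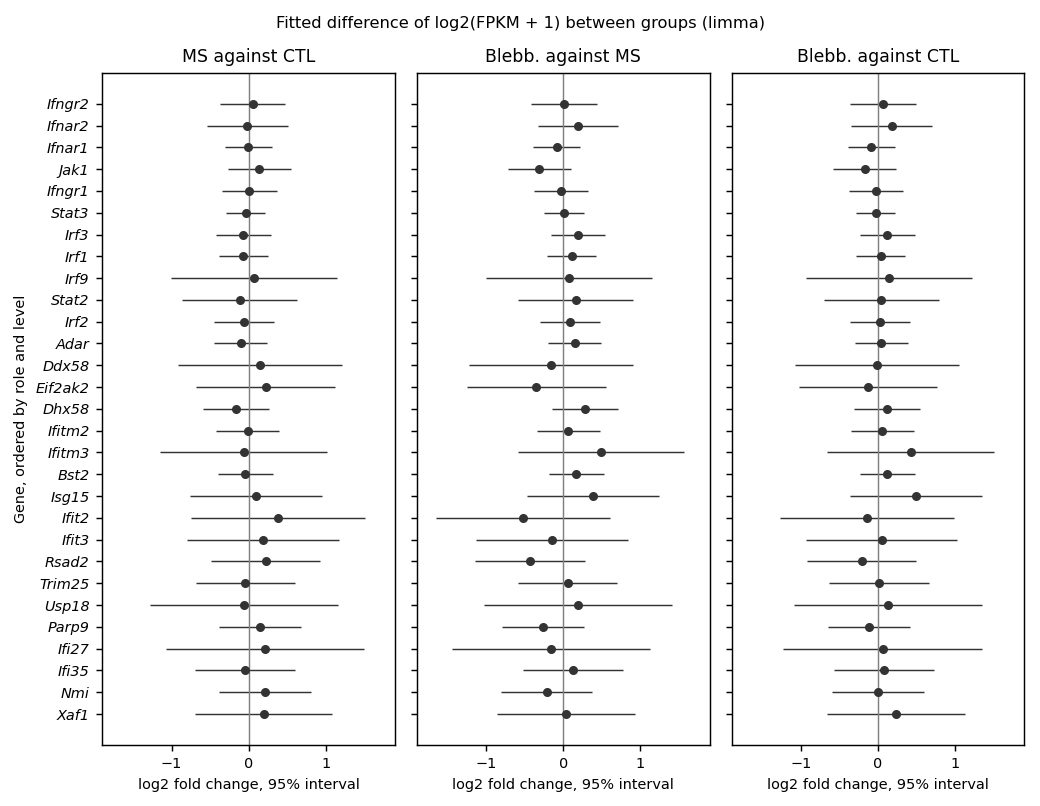
Fitted differences of log2(FPKM + 1) from limma for the 29 genes in the 3 comparisons, with points for the log2 fold change and lines for its 95% interval. Every line crosses 0, and those of Ifitm3, Ifit2, Usp18 and Ifi27 are among the widest.

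These intervals give the size of change in log2(FPKM + 1) that the data could have missed. The SE of the 29 log2 fold changes ran from 0.11 to 0.57 with a median of 0.26, beside a median of 0.20 for all genes. With all 9 libraries, at most 1.25% of all genes had an unadjusted limma p under 0.05 in any comparison. A share near 0.05 would be expected with no change in any gene, so the test was stricter than its threshold states. The absence of calls therefore does not show that nothing changed, and the reason for the low share was not tested. The 95% interval lay within 1 log2 unit on either side of 0 for 20 genes in MS against CTL, for 19 in Blebb. against MS and for 19 in Blebb. against CTL. For the others, such as Ifi27 and Usp18, a change of 1 log2 unit in some direction lay within the interval. Fold changes of genes near 1 FPKM, such as Dhx58 (mean 1.06 in CTL), are understated by the 1 that was added. For these genes an interval within 1 unit does not exclude a change of 1 log2 unit in FPKM itself. When CTL replicate 1, MS replicate 3 and Blebb. replicate 2 were left out together, no gene of the 29 passed the adjusted threshold. Ifi27 then gave 0.42 (SE 0.18) in MS against CTL and -0.45 in Blebb. against MS, with limma adjusted p-values of 1.00 and 0.998 and unadjusted ones of 0.048 and 0.038. An unadjusted p under 0.05 was then reached by 64 (0.633%) and 111 (1.10%) of all genes. For the 8 genes under 1 FPKM, an exact two-sided permutation test of mean FPKM gave p-values from 0.2 to 1, and 3 libraries against 3 cannot go below 0.1.

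A further 101 genes of the pathway were examined in the same fit. All 18 interferon ligand genes listed, of types I, II and III, were listed at 0 in all 9 libraries. Of the 101 genes, 46 were tested, 33 had lower levels, 21 were listed at 0 including the ligands, and 1 is not analysed here. In each of the 3 comparisons limma gave 0 of the 46 at an adjusted and 0 at an unadjusted p under 0.05, and their median log2 fold changes were -0.071 for MS against CTL, 0.13 for Blebb. against MS and -0.0014 for Blebb. against CTL. The libraries did not overlap for 2 of the 46 genes in MS against CTL, where Pml and Mavs were lower (3.17% of all genes), for 2 in Blebb. against MS, where Parp12 and Pml were higher (3.73% of all genes), and for 0 in Blebb. against CTL (2.08%). Pml, a nuclear body protein, Mavs, the adaptor of the RNA sensors, and Parp12 are named after their values were seen.

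The 5 highest of these genes were Lgals3bp, a secreted galectin ligand, Il10rb, a chain of the interleukin 10 and interferon lambda receptors, Shisa5, Lgals9, a galectin, and Ogfr, the opioid growth factor receptor. Il10rb was measured at 97.9, 81.3 and 63.2 FPKM in CTL, 63.2, 65.4 and 92.9 in MS, and 70.9, 114 and 62.7 in Blebb. Lgals3bp gave 144, 132 and 119 FPKM in CTL, 97.6, 134 and 148 in MS, and 138, 181 and 103 in Blebb. Shisa5 ranged from 46.2 to 93.4 FPKM, Lgals9 from 33.6 to 72.5 and Ogfr from 39.04 to 54.9, and all 5 had their 3 highest values in CTL replicate 1, MS replicate 3 and Blebb. replicate 2. This held for 18 of the 46 genes (39.1%), beside 15.8% of all genes tested. Irgm2, Rtp4 and Uba7, among the 18, passed the minimum of 1 FPKM only through their high values in these 3 libraries. Their place among the 46 thus depended on the libraries being counted. The further genes and the 3 libraries were also chosen with earlier results of these data known, so the count of 18 is no independent observation.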

How the data were processed

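Total RNA of B16 cells was sequenced in 9 libraries, and the authors deposited 1 FPKM value per gene and library, already scaled by gene length and mapped fragments. The submitters' processing notes name GRCm38 and mm10. The aligner, counting program and annotation are not given in the sources used here, and strand was not stated, so overlapping genes cannot be separated. In CTL replicate 1 the header gives the sample name in place of a unit, and the values were read as FPKM, since their sum is near those of the others. Depth is unknown: the values showed no steps of whole reads, so no counting intervals are given.

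Groups and replicate numbers were taken from the labels. The 39 genes, their roles, the 101 further pathway genes and the 3 libraries named were chosen with earlier results of these data known. Values were transformed as log2(FPKM + 1), so fold changes of low genes are understated. The 10109 genes averaging 1 FPKM or more were fitted in limma 3.58.1 under R 4.3.3 (lmFit on 3 groups, eBayes with a trend, two-sided, Benjamini-Hochberg adjustment, threshold 0.05). Lower genes went into an exact permutation test. Simulated data were used to test the fit. Values in every library are given for genes averaging 20 FPKM or more, the 3 with the smallest p in each comparison and the 5 with the widest range, and of the further genes the 5 highest. Values of single libraries given for other genes were chosen after they were seen. GC content came from the longest GENCODE transcript of 9663 genes (95.6%), and its trend was removed by loess with a span of 0.5. As alternatives, the pseudocount was set to 0.1, the minimum was dropped or raised to 5 FPKM, and further fits used median-of-ratios factors, quantile normalization, no variance trend, a fit of the groups compared alone, the replicate number as a block, removal of the GC trend and libraries left out. Promoters came from RefSeq (GRCm38.p6).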

Additional observations from a re-analysis of the deposited data

How the results depend on the processing

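No gene of the 29 passed an adjusted p of 0.05 in limma under any alternative run. With 3 libraries left out together, 1 gene of the 29 had an unadjusted p under 0.05 in MS against CTL (0.633% of all genes) and 1 in Blebb. against MS (1.10% of all genes), Ifi27 in both. With single libraries left out, this count ranged from 0 to 0 in MS against CTL, from 0 to 2 in Blebb. against MS, with Jak1 and Rsad2 reached without MS replicate 2 (5.92% of all genes), and from 0 to 1 in Blebb. against CTL, with Isg15 reached without CTL replicate 1 (0.396% of all genes). Of 81 log2 fold changes of the leading genes with single libraries left out, 77 kept their direction and 4 reversed. In MS against CTL, Dhx58 ranged from -0.30 to 0.0024, Nmi from -0.019 to 0.34 and Ifit2 from -0.062 to 0.72, each reversed without CTL replicate 1, and in Blebb. against CTL Ifitm3 ranged from -0.046 to 0.82, reversed without Blebb. replicate 2. The cause was not tested. Under the other alternatives 86 of 86 kept their direction. The median log2 fold change ranged over single libraries left out from -0.087 to 0.11 in MS against CTL, from -0.072 to 0.15 in Blebb. against MS and from -0.072 to 0.20 in Blebb. against CTL.

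The replicate numbers showed no steady pairing, with correlations of the deviations of same-numbered libraries from -0.78 to 0.84. The first principal component, with the 3 libraries named lowest, held 70.4% of the variance, and these libraries carry different numbers. The correlations therefore cannot tell whether same-numbered libraries shared a batch. With the replicate block, 0 of the 29 genes passed an adjusted or unadjusted p of 0.05 in any comparison, the smallest unadjusted limma p being 0.112 for Jak1 in Blebb. against MS, and 119 of all genes lay under an unadjusted p of 0.05 there, beside 126 without it. The unknown depth limits what can be said of genes under 1 FPKM.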

Other observations

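Enzymes that load Isg15 onto proteins differed in their order over the libraries, and all genes in this paragraph were chosen after their values were seen. Ube2l6, the Isg15-conjugating enzyme, was at 21.1, 11.6 and 11.0 FPKM in CTL, 11.8, 12.5 and 15.96 in MS, and 14.4, 26.2 and 10.9 in Blebb. Uba7, the Isg15-activating enzyme, gave 2.31, 1.023 and 0.773 FPKM in CTL, 0.677, 0.687 and 1.47 in MS, and 0.897, 1.98 and 0.644 in Blebb. In both Ube2l6 and Uba7, CTL replicate 1, MS replicate 3 and Blebb. replicate 2 held the 3 highest values, as in Isg15 and Usp18. Herc6, the main mouse ligase for Isg15, ran the other way at 0.504, 2.89 and 3.51 FPKM in CTL, 5.09, 2.23 and 1.46 in MS, and 1.65, 0.695 and 4.16 in Blebb., with its 3 lowest values in those libraries. Pnpt1, an RNA-degrading enzyme of mitochondria, did likewise, at 1.43, 3.44 and 1.88 FPKM there and at 3.81 to 9.33 FPKM in the other 6. Of the 46 further pathway genes tested, these 2 alone had their 3 lowest values there as deposited and with median-of-ratios factors. The shares of all genes were 16.1% and 13.8%. Cgas and Ptpn2 joined them with quantile normalization, giving 4, beside 15.7% of all genes. After removal of the GC trend Cgas joined, giving 3 of 45, beside 19.3% of all genes.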
